A study of Mus musculus with 35 samples.

Results

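The comparison set the lungs of mice given 54 µg of the material coded NRCWE-045 against the lungs of mice given the same dose of the material coded NRCWE-043. Its members are the arrays whose titles carry those codes at that dose, 5 for each material, which made 10 of the 35 arrays of the series. The mice were female C57BL/6 animals, 5 to 7 weeks old, which received 1 intratracheal instillation in 40 µl of suspension and gave lung tissue 24 h later. Mice of the control group (5 arrays, dose 0 µg) carried the same sex, strain, age and time; what fluid they received is not stated in the sources used here. RNA came from random lung sections, 5 to a group, and nothing says that each array was a separate mouse, so the p-values below measure the spread between arrays. The same pair of materials was also given at 18 µg, 5 arrays each, and these arrays share none with the 54 µg comparison. A further material, NRCWE-044, was given at both doses and enters only as values set beside the others. The series title names a ranking of nanomaterials by how strongly they perturb lung pathways, and this contrast asks whether 2 materials at matched mass and time left different transcript levels.

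Particles that reach the airways are taken up by macrophages and touch the epithelium, and the first day brings chemokines that draw in neutrophils and monocytes, acute-phase proteins such as the serum amyloids and orosomucoids that lung as well as liver can make, and interferon-stimulated genes. Oxidant and heme stress add cytoprotective genes, of which Hmox1, the enzyme that opens the heme ring, is the best known. In a bulk lung sample, fewer cells of a type and less RNA per cell cannot be told apart.

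Each value below is a log2 ratio of lung RNA (Cy5) over a universal mouse reference RNA (Cy3) for 1 probe, and a difference is the mean of the NRCWE-045 arrays minus the mean of the NRCWE-043 arrays, so a negative difference means lower with NRCWE-045. Values are printed in the order of replicates 3, 9, 16, 19 and 22 for NRCWE-043 and replicates 8, 14, 28, 32 and 35 for NRCWE-045. Between 42.9% and 58.5% of probes lay well above background on these 10 arrays, none was saturated, and the number of arrays limits the precision. A feature (a gene, or an unnamed transcript) was called at a Benjamini-Hochberg adjusted p under 0.05 in limma. The labelled tissue was borne out by its defining markers: all 13 alveolar type 2 markers measured, among them the surfactant gene Sftpc, and all 10 alveolar type 1 markers measured lay above background on all 10 arrays, with mean list levels of 4.77 to 5.35 and 4.07 to 4.35 above the reference.

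The materials differed on 1375 of 25534 features tested (5.38%), of which 992 were higher (3.89%) and 383 lower (1.5%) with NRCWE-045. Among the 15621 genes with a symbol, 414 were higher and 255 lower, so that 4.28% of these genes were called. That share is the one to set beside each count of called members in the gene lists below. Called differences had a median size of 0.61, and 749 of them were at least 1.5-fold. The 5 and 5 arrays did not overlap on 1135 of the called features, against 1856 features without overlap among all those tested (7.27%). Slides 1 and 3 held arrays of both materials: within slide 1, with 1 array of each, 1351 of the 1375 differences had the same sign, and within slide 3, with 2 NRCWE-043 arrays and 1 NRCWE-045 array, 1367 did, against 69.9% and 73.3% of all features. These arrays are among those that gave the calls, so the agreement is a description and no independent support. With slide as a fixed block 1100 features were called, and with slide as a random block 1542. Leaving out NRCWE-045 replicate 32 gave 908 calls. Over features called higher, the median difference was 0.63 in the Cy5 lung channel and 0.01 in the Cy3 reference, and over those called lower it was -0.54 and 0.05. Of the 1375 features, 833 were also called in Cy5 alone and 74 in Cy3 alone, and 62 had the opposite sign in a separate fit of quantile-normalized Cy5, which called 958 features. Among the genes named below, the reference channel differed by 0.87 for Itgam, 0.76 for Pign, -0.69 for Hbb-b2, -0.69 for Lcn2 and -0.63 for H2-M11.

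The acute-phase genes that passed were lower with NRCWE-045. Of 16 measured, 3 fell (Orm2, Orm1 and Saa2), none rose, and 14 differences were negative, with a median of -0.35 against -0.01 over all features; under 5 other scalings the median lay between -0.60 and -0.37. Orm2 encodes an orosomucoid, an abundant acid glycoprotein of plasma that binds small molecules. Its log2 ratios were 3.53, 3.78, 3.38, 2.98 and 4.32 with NRCWE-043, and 2.24, 3.00, 1.84, 2.2 and 0.42 with NRCWE-045. Replicate 35 was the lowest and replicate 14 the highest of the NRCWE-045 arrays, and only replicate 14 reached into the NRCWE-043 range. The difference was -1.66 ± 0.40 (SE, limma adjusted p = 0.0081), a fold of 3.15. Without replicate 35 it was -1.28 with an adjusted p of 0.050, which misses the threshold, and within slides 1 and 3 it was -1.29 and -0.18. The upstream sequence of Orm2 is shown because C/EBP factors, which drive acute-phase genes, bind sites of the form TTNNGNAA. It holds 2 such matches, in capitals, 120 and 108 bases before the start; both strands were searched, and 36.8% of the 32851 upstream windows of 250 bases in the table hold 1 or more. The sequence is RefSeq's for GRCm38.p6 on the plus strand, chr4:63362199-63362448.
Orm2: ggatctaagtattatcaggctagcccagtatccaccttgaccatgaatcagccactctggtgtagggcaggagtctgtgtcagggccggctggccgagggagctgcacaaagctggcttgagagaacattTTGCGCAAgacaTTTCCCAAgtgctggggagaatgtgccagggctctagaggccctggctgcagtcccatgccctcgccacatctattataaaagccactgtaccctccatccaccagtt

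Orm1, the neighbouring orosomucoid gene, read 2.67, 2.83, 2.48, 2.22 and 3.35 with NRCWE-043 and 1.57, 2.37, 1.27, 1.59 and 0.38 with NRCWE-045. The pattern over arrays was that of Orm2, with replicate 35 lowest and replicate 14 inside the other group, and probes of these similar genes may share signal. Its difference was -1.28 ± 0.32 (adjusted p = 0.012), and the adjusted p was 0.053 without NRCWE-043 replicate 22 and 0.071 without NRCWE-045 replicate 35. Saa2, a serum amyloid A apolipoprotein of the acute phase, read 2.40, 3.30, 3.00, 2.85 and 3.35 with NRCWE-043 and 2.28, 2.96, 0.35, 1.23 and 0.31 with NRCWE-045. The NRCWE-045 arrays fell into high replicates 8 and 14 and low replicates 28, 32 and 35, and the groups overlapped. Saa2 differed by -1.55 ± 0.44 (adjusted p = 0.031). That call changed with the setting: the within-slide differences were -0.11 and 0.04, the adjusted p was 0.19 with slide as a fixed block, and 3 of the 10 fits that left out 1 array kept the call, with adjusted p up to 0.13 in the rest.

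Saa3, the amyloid made in inflamed tissue outside the liver, spread widely with NRCWE-045. It read 2.99, 4.48, 4.42, 4.08 and 5.15 with NRCWE-043 and 2.91, 4.65, 1.53, 2.47 and -0.58 with NRCWE-045. Means were 4.22 ± 0.79 and 2.19 ± 1.92 (SD, n = 5 each), and the difference of -2.03 ± 0.99 did not pass the test (adjusted p = 0.32). Saa1 differed by -1.69 ± 0.59 with an adjusted p of 0.10. Set side by side against the same 5 controls, Saa3 was higher by 6.80 with NRCWE-043 and by 4.77 with NRCWE-045, and Orm2 by 3.12 and 1.46 (for NRCWE-045, Saa3 was 4.48 with an adjusted p of 0.10 without control replicate 7). The controls were low for these 2 genes apart from replicate 29, which read 1.31 for Saa3 and 1.91 for Orm2. Lcn2 and Hp, a siderophore-binding protein and the hemoglobin scavenger haptoglobin, differed by -0.02 ± 0.35 and -0.01 ± 0.28. For Lcn2 the Cy5 lung channel differed by -0.71 and the Cy3 reference by -0.69, so its ratio hides a shift in both. Its difference ran from -0.80 to 0.10 over the 28 alternatives, and none of them called it.

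**Figure D1:**
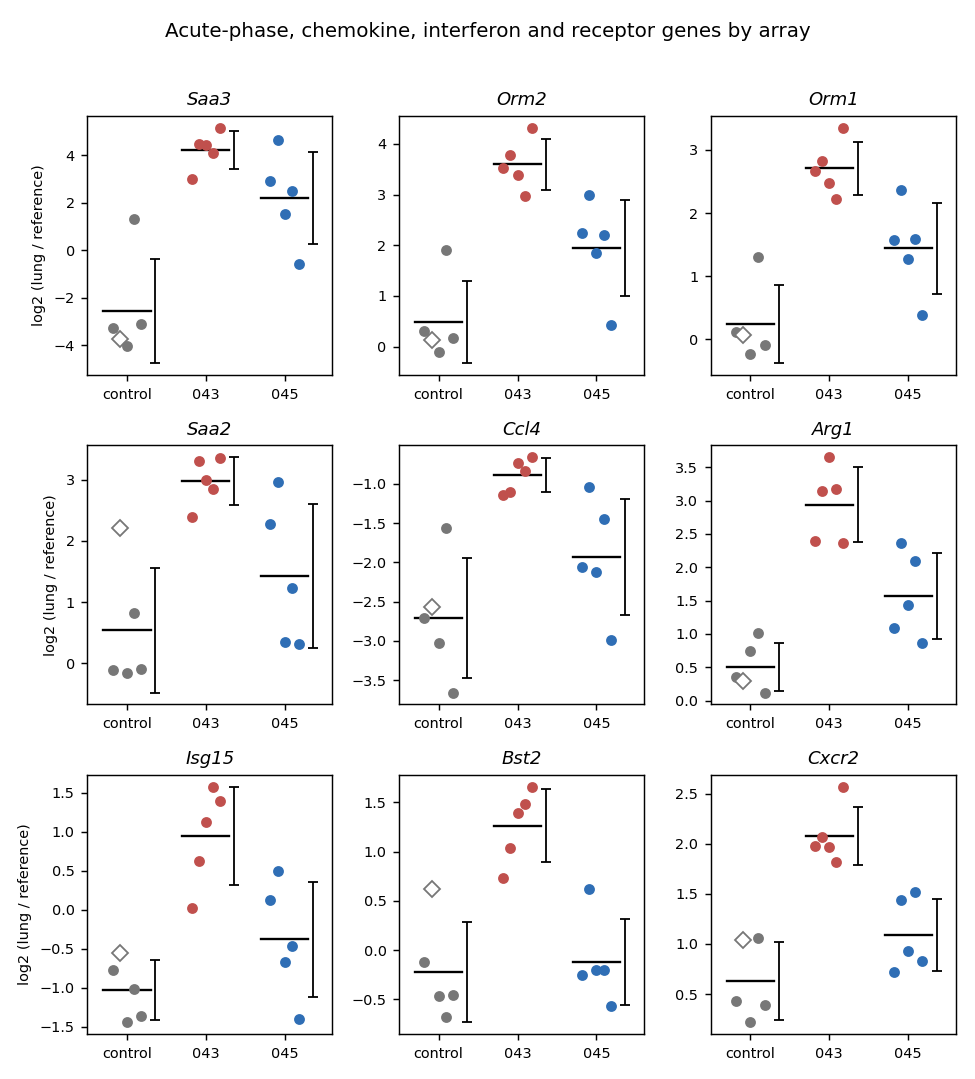
Log2 ratio of lung over reference RNA for 9 genes of the early lung response on each array of the control group, NRCWE-043 at 54 µg and NRCWE-045 at 54 µg (5 points each; horizontal line, mean; bar beside it, SD; open diamond, control replicate 7). NRCWE-043 arrays lie highest for every gene shown on the mean, and NRCWE-045 arrays spread more widely for Saa3, from -0.58 to 4.65, than NRCWE-043 arrays, from 2.99 to 5.15.

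Chemokines that draw in monocytes and lymphocytes leaned the same way and mostly did not pass. Of 12 CC chemokines, 9 differences were negative, with a median of -0.50 (-0.67 to -0.45 under the other scalings). Of the 12, 1 was called, against 4.28% of all genes with a symbol. It was Ccl4, a chemokine that macrophages secrete, which fell. Ccl4 read -1.14, -1.10, -0.74, -0.83 and -0.66 with NRCWE-043 and -2.06, -1.04, -2.12, -1.45 and -2.99 with NRCWE-045. Replicate 14 was the NRCWE-045 array inside the NRCWE-043 range. Its difference of -1.04 ± 0.31 (adjusted p = 0.038) lost the call in 7 of the 10 fits without 1 array, with an adjusted p of 0.18 without NRCWE-045 replicate 35, and with slide as a fixed block (0.16). Ccl2 and Ccl7, ligands of CCR2, differed by -0.73 ± 0.39 (adjusted p = 0.39) and -0.78 ± 0.41 (0.36). Against the control arrays, Ccl2 differed by 2.73 with NRCWE-043 and 2.00 with NRCWE-045, and Ccl7 by 3.21 and 2.43.

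The CXC chemokines split. Of 12 measured, 7 differences were negative and 5 positive, and 1 rose, Cxcl14, a chemokine of resting epithelium, by 0.51 ± 0.16 with an adjusted p just under the threshold (0.050 as printed) that 1 of the 10 fits without an array kept. Of the 18 other alternatives, 6 kept that call. Over all 28 its difference went down to 0.15 and its limma adjusted p up to 0.94. For Cxcl14 the Cy5 lung channel differed by 0.16 and the Cy3 reference by -0.35. Cxcl10, the interferon-induced ligand of CXCR3, differed by -1.04 ± 0.47 (adjusted p = 0.25), while the neutrophil attractants Cxcl1 and Cxcl5 differed by 0.24 ± 0.40 and 0.39 ± 0.57 (0.87 and 0.85). Among 15 cytokines, 13 differences were negative and 1 was called, against 4.28% of all genes with a symbol. It was Il1rn, the natural antagonist of the interleukin 1 receptor, which fell. Il1rn read 0.39, 0.21, 0.41, 0.23 and 0.44 with NRCWE-043 and -0.27, 0.16, 0.05, -0.01 and -0.11 with NRCWE-045. The groups did not overlap, and the difference was small, -0.37 ± 0.09 (adjusted p = 0.0080; 0.11 after median centring in place of loess), on a probe above background on 3 of the 5 NRCWE-045 arrays. Il1b and Il6 differed by -0.43 ± 0.29 and -0.31 ± 0.27 (adjusted p = 0.53 and 0.68).

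Genes of the cells these signals recruit gave mixed directions. Of 18 neutrophil markers, Cxcr2, Clec4d and Mmp9 fell and Csf3r rose with NRCWE-045, and the median difference was -0.38. The calls of Clec4d, a C-type lectin receptor of myeloid cells (-0.75 ± 0.23), and Mmp9, the gelatinase of neutrophil granules (-0.55 ± 0.17), each at an adjusted p of 0.047, held in 4 of the 10 fits without 1 array, with adjusted p up to 0.19, and Mmp9 was above background on 3 of the 5 NRCWE-045 arrays. Cxcr2, the receptor for the neutrophil-attracting CXC chemokines, read 1.98, 2.07, 1.97, 1.82 and 2.57 with NRCWE-043 and 0.72, 1.44, 0.93, 1.52 and 0.83 with NRCWE-045. Every NRCWE-045 array was below every NRCWE-043 array. The difference was -0.99 ± 0.22 (adjusted p = 0.0043), and it kept the call under all 28 alternatives run. Csf3r, the receptor for granulocyte colony-stimulating factor, went the other way without overlap, from 0.62 to 0.87 with NRCWE-043 and from 1.36 to 1.72 with NRCWE-045 (0.76 ± 0.14, adjusted p = 0.00048; 0.46 with an adjusted p of 0.88 after median centring). The granule and calgranulin genes S100a8, S100a9, Camp and Ngp did not pass, with differences of -0.73, 0.01, 0.57 and 0.30. Averaged over the list, the neutrophil marker level ran from 1.41 to 1.70 on the NRCWE-043 arrays and from 0.90 to 1.86 on the NRCWE-045 arrays.

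Macrophage genes also moved both ways. Arg1, the arginase of alternatively activated macrophages, read 2.39, 3.14, 3.65, 3.17 and 2.36 with NRCWE-043 and 1.09, 2.36, 1.44, 2.09 and 0.86 with NRCWE-045. NRCWE-045 replicate 14 equalled the lowest NRCWE-043 array, and the other 4 lay below it. Its difference was -1.37 ± 0.35 (adjusted p = 0.012), 0.056 without NRCWE-045 replicate 35 and 0.061 with slide as a fixed block, and within slides 1 and 3 it was -1.30 and -1.05. C3ar1, the receptor for complement fragment C3a, fell by 0.58 (SE 0.14, adjusted p = 0.0097; 0.053 without NRCWE-043 replicate 22 and 0.060 after median centring). Itgam, the integrin chain CD11b of myeloid cells, was higher by 1.37 ± 0.22 (adjusted p = 7.3e-05) on its brightest probe, and its other 2 tested probes differed by -0.28 and -0.37 (0.042 and 0.44), so that probes of this gene were called in opposite directions. Ear2, a ribonuclease that marks alveolar macrophages, was higher by 0.71 ± 0.19 (adjusted p = 0.022; 0.066 to 0.088 without NRCWE-043 replicate 3 or NRCWE-045 replicates 28, 32 or 35, and 0.93 after median centring), and it belongs to a family of near-identical genes whose probes may share signal.

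Of 21 interferon-stimulated genes, 2 were called, against 4.28% of all genes with a symbol. They were Bst2 and Isg15, both lower with NRCWE-045. Of the 21 differences, 16 were negative, with a median of -0.26 (-0.48 to -0.26 under the other scalings). Isg15 is a ubiquitin-like protein that is joined to other proteins after interferon, and Bst2 is tetherin, which holds budding virus at the cell surface. Their upstream sequences are shown because both hold matches to the interferon-stimulated response element, searched on both strands as GAAA, any 2 bases and GAAA, and 2.98% of the 32851 windows hold it. Isg15 has 3 overlapping matches, 78, 72 and 66 bases before the start, and Bst2 has 2, 130 and 124 bases before it; capitals mark them. The sequences are RefSeq's for GRCm38.p6 on the minus strand, chr4:156200819-156201068 for Isg15 and chr8:71537473-71537722 for Bst2.
Isg15: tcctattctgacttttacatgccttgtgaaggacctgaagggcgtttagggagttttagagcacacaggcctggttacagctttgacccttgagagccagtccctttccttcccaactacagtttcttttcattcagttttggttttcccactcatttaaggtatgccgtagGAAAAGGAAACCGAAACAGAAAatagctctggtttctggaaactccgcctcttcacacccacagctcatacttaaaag
Bst2: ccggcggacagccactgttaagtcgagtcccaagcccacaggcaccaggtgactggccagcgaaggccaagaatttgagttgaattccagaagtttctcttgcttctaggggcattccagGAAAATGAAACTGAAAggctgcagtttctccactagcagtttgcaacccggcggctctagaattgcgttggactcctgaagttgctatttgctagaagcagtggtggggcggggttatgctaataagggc

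Bst2 read 0.73, 1.04, 1.39, 1.48 and 1.66 with NRCWE-043 and -0.25, 0.62, -0.20, -0.20 and -0.57 with NRCWE-045. Replicate 14 stood highest of the NRCWE-045 arrays, and still under the lowest NRCWE-043 array. The difference was -1.38 ± 0.29 (adjusted p = 0.0022; 0.059 after median centring), with -0.98 and -0.81 within slides 1 and 3, and at 18 µg it was -1.22 ± 0.29 (adjusted p = 0.0054). Isg15 read 0.02, 0.63, 1.13, 1.58 and 1.40 with NRCWE-043 and 0.13, 0.50, -0.67, -0.47 and -1.40 with NRCWE-045. Replicate 3 was the lowest NRCWE-043 array, and replicates 8 and 14 overlapped it. Isg15 differed by -1.33 ± 0.35 (adjusted p = 0.017), and its other probe gave -1.10 ± 0.26 (0.0084). The brightest probe's adjusted p was 0.067, 0.056 and 0.087 without NRCWE-043 replicates 19 or 22 or NRCWE-045 replicate 35, and 0.12 with slide as a fixed block; within slides 1 and 3 the difference was 0.11 and -0.86. The other members called in neither direction included the Ifit and Oas genes, such as Ifit1 at -0.47 ± 0.23 (0.33) and Oas2 at -0.42 ± 0.28 (0.53). Tap2, a subunit of the peptide transporter that loads class I molecules, fell by 0.62 (SE 0.17, adjusted p = 0.019; 0.47 after median centring, 0.069 with slide as a fixed block, and 0.079 and 0.070 without NRCWE-043 replicate 22 or NRCWE-045 replicate 28).

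Hmox1 had the largest difference of any gene with a symbol. It read -0.60, -0.64, -0.12, -0.82 and -0.25 with NRCWE-043 and -3.67, -3.78, -4.11, -3.24 and -3.78 with NRCWE-045. The groups stood apart by more than their whole spread. The difference was -3.23 ± 0.32 (adjusted p = 6.5e-08), a fold of 9.37, and it was -3.08 and -3.30 within slides 1 and 3. A second Hmox1 probe also passed, at the smaller size of -0.71 ± 0.20 (adjusted p = 0.031). Control replicates 2, 7, 15, 29 and 30 read -3.33, -1.43, -4.07, -3.95 and -3.21, and the mean with NRCWE-044 at 54 µg was -3.49 ± 0.16 (SD, n = 5), so that NRCWE-043 was the material that differed from control, by 2.71 against -0.52 for NRCWE-045. The control array at -1.43 is replicate 7, described below.

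The other genes of that pathway did not follow Hmox1. Of 20 targets of the transcription factor NRF2, Hmox1 fell, 1 rose and 18 were not called, and the median difference was 0.04. The one that rose was Gsta3, a glutathione transferase, which read 4.01, 3.93, 3.86, 3.78 and 4.85 with NRCWE-043 and 5.06, 4.85, 5.19, 4.64 and 5.43 with NRCWE-045. Replicate 22 stood apart from the other 4 NRCWE-043 arrays and reached into the NRCWE-045 range. Gsta3 differed by 0.95 ± 0.23 (adjusted p = 0.0090), by 0.87 ± 0.23 on its other probe, and by 0.65 after median centring (0.83) or scaling between arrays (0.27). Of 21 genes of heme and iron handling, none was called besides Hmox1, and their median difference was -0.03. None of 11 metallothionein and zinc transporter genes passed, and Mt2 differed by -0.14 ± 0.38.

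Among the genes lower with NRCWE-043, the largest difference was in Slc26a1, an exchanger of sulfate and other anions. It read -0.30, 0.00, -0.35, -0.67 and 0.11 with NRCWE-043 and 2.69, 1.98, 2.40, 2.88 and 3.10 with NRCWE-045. The lowest NRCWE-045 array was above the highest NRCWE-043 array. The difference was 2.85 ± 0.37 (adjusted p = 5.3e-06), a fold of 7.20, while its relatives Slc26a2, Slc26a4, Slc26a6, Slc26a9, Slc26a10 and Slc26a11 lay between -0.23 and 0.13 and were not called. Idua overlaps Slc26a1 in the annotation, and whether the probe reads only 1 of them was not tested. Idua was itself called, at 1.53 on its brightest probe, while its other probe differed by -0.01 ± 0.14. Pip5kl1, a relative of the phosphatidylinositol phosphate kinases, was higher with NRCWE-045 by 2.41 ± 0.31, from between -0.89 and -0.59 to between 1.16 and 2.00.

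H2-Q4, a class Ib molecule of the major histocompatibility complex, read 0.11, 0.29, -0.41, -0.31 and 0.58 with NRCWE-043 and 1.98, 2.63, 2.68, 2.81 and 1.91 with NRCWE-045. The groups were more than 1 unit apart at their nearest arrays. Its difference was 2.35 ± 0.32 (adjusted p = 1.2e-05). The class I list as a whole did not move: of 23 members, H2-Q4 rose, Tap2 fell, 21 were not called and the median was 0.00. Its near relatives H2-Q1, H2-Q2, H2-Q6, H2-Q7, H2-Q8 and H2-Q10 differed by -0.15, 0.20, 0.31, 0.23, 0.00 and 0.15, and the classical genes H2-K1 and H2-D1 by -0.01 and 0.43, none of them called. H2-M11, another class Ib gene, rose by 1.47 ± 0.23 (adjusted p = 7.3e-05; 0.80 with an adjusted p of 0.054 in the Cy5 channel alone). None of 10 class II genes passed.

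Rab5c, a small GTPase of early endosomes, read 0.22, 0.11, -0.04, -0.25 and 0.10 with NRCWE-043 and 2.32, 1.81, 1.89, 2.30 and 2.01 with NRCWE-045. It differed by 2.04 ± 0.22 (adjusted p = 4.2e-07), with no overlap. Raly, an RNA-binding protein of the hnRNP family, rose by 2.03 ± 0.26, Kif12, a kinesin, by 1.97 ± 0.27, Ulk3, a kinase of the ULK family, by 1.89 ± 0.22, and Pign, an enzyme of glycosylphosphatidylinositol anchor synthesis, by 1.86 ± 0.27. The ranges of these 4 genes did not overlap between the materials. Ulk3 had a second tested probe, which differed by 0.14 ± 0.12 (adjusted p = 0.67). Gm10375 was well above background on 1 of the 5 NRCWE-043 arrays, so its difference rests on dim signals there. 2810459M11Rik, Gm10375 and Fbxl12os were higher by 2.25, 2.13 and 1.92 (adjusted p = 5e-06, 2.4e-05 and 3e-05; Fbxl12os 0.054 after median centring). BC061237 was not well above background on any NRCWE-043 array and was above it on all 5 NRCWE-045 arrays, which puts the signal of its brightest probe at least 4-fold higher with NRCWE-045 (measured difference 2.01 ± 0.29, adjusted p = 2e-05). Its other tested probe differed by 0.84 ± 0.16 (0.0013), a smaller size than that bound, so the probes of this gene disagree on the fold. The bound sets the mean of the bright arrays against the lowest signal well above background on each dim array.

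Genes higher with NRCWE-043 were fewer. Sertad3, a coactivator of E2F transcription, read 0.23, 0.09, -0.06, -0.06 and -0.02 with NRCWE-043 and -2.07, -1.55, -2.0, -2.38 and -2.25 with NRCWE-045. It fell by 2.09 with NRCWE-045 (SE 0.25, adjusted p = 2.2e-06). Lamtor2, a subunit of the lysosomal complex that anchors mTORC1, read 0.37, 0.31, 0.24, 0.35 and 0.32 against -1.43, -1.37, -1.20, -1.67 and -1.59. Its difference was -1.77 ± 0.22 (adjusted p = 2.6e-06), a fold of 3.41. Neither gene overlapped between the materials. Epha1, an ephrin receptor, fell by 1.74 (SE 0.24), and Bax, which permeabilises the outer mitochondrial membrane in apoptosis, by 1.58 (SE 0.25), while the other 17 of 18 genes of p53 and apoptosis were not called. Ncl, the nucleolar protein nucleolin, fell by 1.41 (SE 0.21) on its brightest probe, and its other probe by 0.38 without passing (adjusted p = 0.064). Tifa, an adaptor that signals through TRAF6 to NF-kB, read 0.13, 0.14, 0.24, 0.29 and 0.45 against -1.22, -1.04, -1.42, -1.08 and -1.04. The 10 values left a gap of more than 1 unit between the materials, and the difference was -1.41 ± 0.17 (adjusted p = 2.1e-06). Ier3, an immediate early gene of NF-kB, fell by 1.37 (SE 0.23, adjusted p = 0.00014), and Gm5176, a transcript known by its number only, by 1.99 (SE 0.43, adjusted p = 0.0032).

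**Figure D2:**
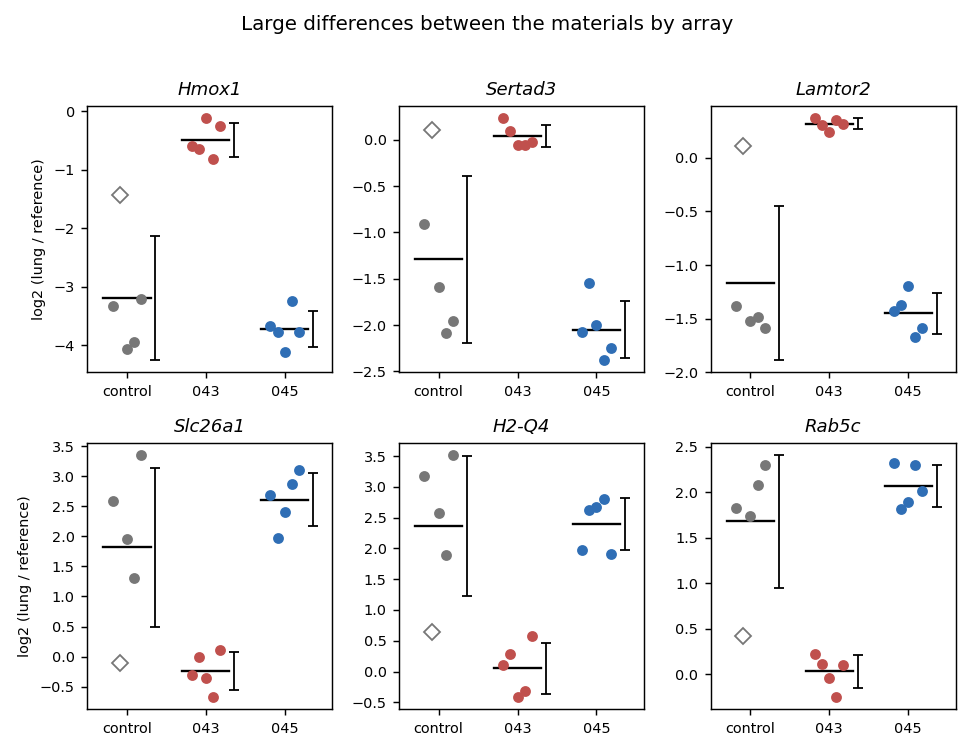
Log2 ratio of lung over reference RNA for 6 genes with large differences, by array, for the control group, NRCWE-043 at 54 µg and NRCWE-045 at 54 µg (5 points each; line, mean; bar, SD). Control replicate 7, the open diamond, lies nearer the NRCWE-043 mean in every panel, as for Hmox1 at -1.43, while the other 4 controls lie nearer the NRCWE-045 mean, apart from 1 control at -0.91 for Sertad3.

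The largest differences of all were in transcripts without a gene symbol. Of the 67 called features that differed by at least 2, 57 had no symbol, and 54 of the 67 were higher with NRCWE-045. Among those that the array design names by position, the largest was at chr5:15146475-15170100 (mm9, forward orientation), where the probe read -3.79, -4.04, -4.28, -4.43 and -4.73 with NRCWE-043 and 1.37, 2.15, 2.38, 2.55 and 1.61 with NRCWE-045. It was not well above background on any NRCWE-043 array and was above it on all 5 NRCWE-045 arrays, so the transcript was at least 76.1-fold higher with NRCWE-045 (measured difference 6.27 ± 0.58, adjusted p = 6.5e-08). A second region nearby, chr5:14943275-14944205, was at least 68.5-fold higher and another, chr5:15033568-15033987, at least 11.0-fold higher (adjusted p = 6.5e-08 and 2.1e-06). Control replicate 7 read -3.09 at the first of them, with the NRCWE-043 arrays, while the other controls read 1.69 to 2.83. These regions were chosen after their values were seen.

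That control array ran through the whole comparison. On the 1375 called features, control replicate 7 lay nearer to the NRCWE-043 mean than to the NRCWE-045 mean at 1091 (79.3%), against 54 to 258 for the other 4 controls. The NRCWE-043 arrays at 18 µg lay nearer that mean at 979 to 1221 of these features, and the arrays of NRCWE-044 at both doses and of NRCWE-045 at 18 µg at 43 to 420. Of the 67 features that differed by at least 2, all 67 had control replicate 7 on the NRCWE-043 side, and of the 321 that differed by at least 1, 306 did. Single genes showed both kinds. For Lamtor2 replicate 7 read 0.11 and the other controls -1.59 to -1.38. For Slc26a1 it read -0.10 against 1.31 to 3.36, for Epha1 2.11 against 0.08 to 0.38, and for Saa2 2.21 against -0.15 to 0.83. For Orm2, Orm1, Arg1 and Ccl4, in contrast, replicate 7 read 0.14, 0.07, 0.30 and -2.57, within the range of the other controls. What control replicate 7 shares with the NRCWE-043 arrays, and what part it has in the difference between the materials, was not tested.

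The same array bears on each material's own comparison with control, which share the 5 control arrays. NRCWE-043 at 54 µg differed from control on 2603 features (10.2%) and NRCWE-045 on 83 (0.325%). Without control replicate 7 the counts were 3089 and 0, with 2075 features at an unadjusted p under 0.05 for NRCWE-045 (limma). Hmox1 was then 3.15 above control with NRCWE-043 and -0.07 with NRCWE-045, Slc26a1 -2.54 and 0.31, and Orm2 3.03 and 1.37 (adjusted p = 0.24 for NRCWE-045). In the comparison between the materials, control arrays entered the estimate of the spread, the signal filter and the choice of the brightest probe, and not the means compared. A fit without control replicate 7, on the same features and probes, called 1478 features.

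**Figure D3:**
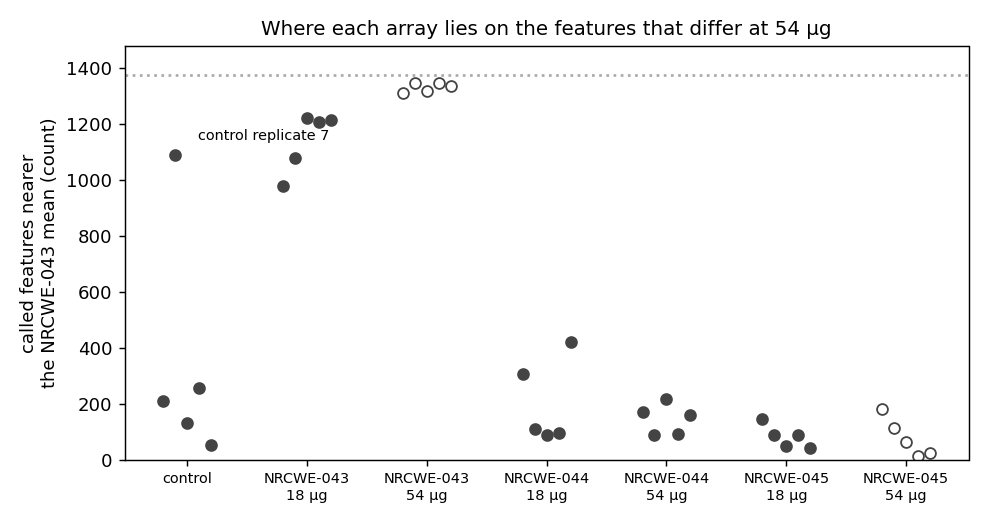
For each of the 35 arrays, the number of the 1375 features called between the materials at 54 µg on which the array lies nearer to the NRCWE-043 mean than to the NRCWE-045 mean (open circles, the 10 arrays that gave these means; dotted line, all features). Control replicate 7 stands at 1091, beside the NRCWE-043 arrays at 18 µg, and the other controls at 54 to 258.

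Much of the difference between the materials recurred at the lower dose. At 18 µg 2179 features were called (8.53%), and 988 of these were also called at 54 µg with the same sign, which is 71.9% of the 54 µg list and 45.3% of the 18 µg list; none was called with opposite signs. Of the 1375 features, 1363 had the same sign at 18 µg (99.1%), against 68.0% of all features, and the slope of the 18 µg on the 54 µg differences was 0.96. The change of the difference with dose was called for 0 features in limma, with 913 at an unadjusted p under 0.05 and 0 calls under every alternative run. Hmox1 differed by -2.69 ± 0.32 at 18 µg, Slc26a1 by 2.66 ± 0.37, H2-Q4 by 2.67 ± 0.32 and Lamtor2 by -1.57 ± 0.22, all called. Among the inflammatory genes called at 54 µg, 5 examples were picked that were not called at 18 µg. A smaller difference at 18 µg follows from that choice, so it is no result about dose. At 18 µg Orm2 differed by -0.74 ± 0.40, Saa2 by -0.74 ± 0.44, Arg1 by -0.37 ± 0.35, Ccl4 by -0.11 ± 0.31 and Cxcr2 by -0.40 ± 0.22. Bst2 was called at both doses. The whole lists had medians at 18 and 54 µg of -0.32 and -0.35 for acute-phase genes, -0.18 and -0.19 for cytokines, -0.18 and -0.50 for CC chemokines, and 0.01 and -0.26 for interferon-stimulated genes. The change with dose did not pass for any of the 5 genes above (unadjusted p from 0.039 for Ccl4 to 0.20 for Saa2, adjusted p = 1 for each).

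**Figure D4:**
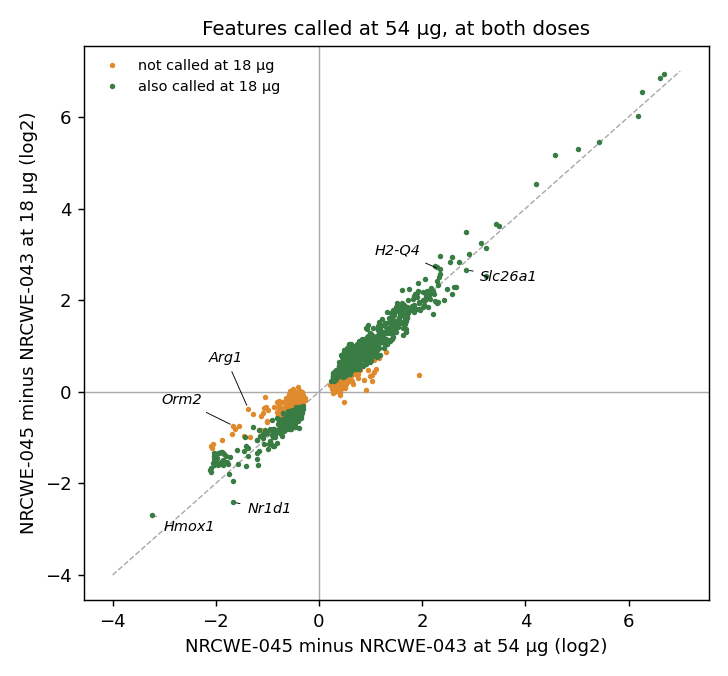
Difference between the materials (NRCWE-045 minus NRCWE-043, log2) at 54 µg, horizontal, and at 18 µg, vertical, for the 1375 features called at 54 µg; the doses share no array, and the dashed line marks equal differences. Green points were also called at 18 µg (988 features) and orange points were not; Orm2 and Arg1 are among the orange points, above the line.

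Different probes of a gene often disagreed about its difference. Of the 669 called genes, 207 had other tested probes, 255 in all; 157 of these had the same sign as the brightest probe, 35 passed with that sign and 3 passed with the opposite one. The other probe showed a median of 16.2% of the brightest probe's difference. Among the 42 genes with a difference of at least 1 on the brightest probe, the median share was 1.07% over 51 probes, and 7 of those 51 reached 50% of it or more. Isg15 was among the 7, and Hmox1, Ulk3 and Ncl were not.

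**Figure D5:**
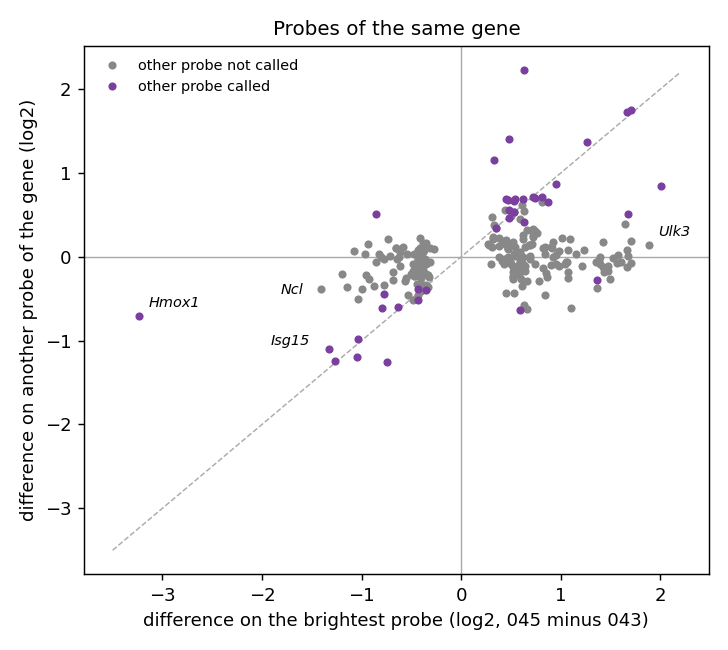
For called genes with more than 1 tested probe, the difference between the materials on the brightest probe, horizontal, against that on each other probe, vertical (log2, NRCWE-045 minus NRCWE-043; 255 probes of 207 genes; dashed line, equal differences). Most other probes lie near 0 on the vertical axis, and the 38 that were called are purple.

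Nr1d1, a heme-binding nuclear repressor of the circadian clock, fell with NRCWE-045. It read 1.74, 1.41, 1.31, 1.55 and 0.33 with NRCWE-043 and -0.75, -0.75, -0.83, 0.13 and 0.17 with NRCWE-045. NRCWE-043 replicate 22 was close to the 2 highest NRCWE-045 arrays, without overlap. Nr1d1 differed by -1.67 ± 0.43 (adjusted p = 0.015) and at 18 µg by -2.41 ± 0.43, but the controls ran from -1.68 to 2.08 and the NRCWE-044 arrays read -1.67 ± 0.18. Thra overlaps Nr1d1 in the annotation on the opposite strand. The 17 clock genes measured had a median difference of -0.13.

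Matrix genes were lower with NRCWE-045 where they passed. Of 17, Lox, which cross-links collagen and elastin, fell by 0.68 (SE 0.16, with an adjusted p of 0.071 after scaling between arrays). Its call was also lost with the mean over probes and in the Cy5 channel alone. The other Lox probe differed by -0.28 ± 0.18 (adjusted p = 0.51). Col5a1, a minor fibrillar collagen chain, fell by 0.50 (SE 0.12, with an adjusted p of 0.26 after median centring). Eln, the elastin gene, fell by 0.89 (SE 0.24). The adjusted p of Eln was 0.085 and 0.088 without NRCWE-043 replicate 3 or NRCWE-045 replicate 32, and 0.11 after median centring. Among the 17, 9 differences were positive and the median was 0.00. Timp1, an inhibitor of matrix metalloproteinases, differed by -1.06 ± 0.57 (adjusted p = 0.38). In the unfolded protein response, Hspa5, the chaperone BiP of the endoplasmic reticulum, fell by 0.74 (SE 0.22, adjusted p = 0.044) and Edem1, which passes misfolded glycoproteins on for degradation, by 0.54 (SE 0.16, adjusted p = 0.035), among 15 negative differences of 21. Hspa5 and Edem1 were the 2 calls among those 21 genes, against 4.28% of all genes with a symbol. Both of those calls held in 3 of the 10 fits without 1 array, with adjusted p up to 0.20 and 0.13. Aldh1a1, a retinal dehydrogenase of club cells, rose by 0.87 (SE 0.22, adjusted p = 0.013; 0.86 after median centring, and 0.055 and 0.065 without NRCWE-043 replicate 19 or NRCWE-045 replicate 35), in a list of xenobiotic enzymes where 17 of 19 differences were positive and 1 was called. All 18 cell-cycle genes had negative differences, with a median of -0.38 (-0.56 to -0.16 under the other scalings, with 15 to 18 negative), and none passed; the nearest was Ccna2, cyclin A, at -0.91 ± 0.29 (adjusted p = 0.065).

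Over the 45 lists, 34 of the 603 genes measured were called (5.64%), against 4.28% of all genes with a symbol, and 21 lists had no call. Of the 34, 10 were higher and 24 lower with NRCWE-045, where all genes with a symbol gave 414 higher and 255 lower; the lists were chosen with earlier results known, and this difference was not tested. Those without one held cholesterol synthesis (22 genes), heat shock (14), mitochondrial respiration (16), lysosome (18) and class II genes.

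The 20 marker lists covered lung cell types and also tissues such as heart, skeletal muscle, adipose and liver. Of their 225 entries, 10 were called, 5 in each direction, against 4.28% of all genes with a symbol. No call fell in 14 of the 20 lists. Lrrn4, a mesothelial gene, read 1.87, 1.60, 1.06, 1.74 and 0.97 with NRCWE-043 and 0.28, 0.18, -0.45, -0.14 and 0.21 with NRCWE-045. It fell by 1.43 without overlap (SE 0.26, adjusted p = 0.00052), control replicate 7 read 1.26 and the other controls -0.45 to -0.23, and the other 6 mesothelial markers were not called. Hbb-b2, a beta globin gene, rose by 0.99 ± 0.18 (adjusted p = 0.00048; 0.29 with an adjusted p of 0.80 in the Cy5 channel alone), all 9 erythroid differences were positive, which 3 of the 5 other scalings did not keep, and near-identical globin genes may share its signal. Scgb1a1, the secretory protein of club cells, differed by 0.62 ± 0.20 (adjusted p = 0.057). Tissue from outside the lung differed between arrays: the mean of 11 adipose markers was 3.66 and 2.19 on NRCWE-043 replicates 9 and 19 and 0.30 to 0.95 on the other 8, and that of 15 heart markers was 1.41 on NRCWE-043 replicate 16 and 1.85 on NRCWE-045 replicate 32 and at most 0.66 on the others. No adipose or heart marker was called. The adipsin gene Cfd differed by -2.55 ± 1.28 and Myh6, a cardiac myosin heavy chain, by -0.61 ± 1.54. Without replicates 9 and 19, 678 features were called, 672 of them among the 1375, and without replicates 16 and 32, 796 were called, 766 of them among the 1375. Hmox1, Slc26a1, Cxcr2, Bst2 and Orm2 kept their calls in both fits. Saa2, Ccl4, Isg15, Cxcl14, Mmp9, Clec4d, Ear2, Eln, Hspa5 and Edem1 lost theirs in both. Arg1, Nr1d1, Gsta3 and Aldh1a1 lost theirs without replicates 9 and 19, with adjusted p of 0.11, 0.12, 0.12 and 0.13. Col5a1 also lost its call in that fit, and Tap2 and Lox lost theirs without replicates 16 and 32.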

How the data were processed

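Total lung RNA (200 ng an array, Cy5) was hybridised against universal mouse reference RNA (Cy3) on 35 dual-channel Agilent arrays on 7 slides, per the labels' protocols. The deposited scanner files hold each spot's intensity in both channels, written by Agilent Feature Extraction 11.0.1.1 per the file headers. The authors' deposited values, log2 ratios, were used as an alternative, and how they were normalized is nowhere stated in the headers or labels. On the 10 arrays compared they correlated at 0.994 to 0.998 over probes with loess ratios made without background correction. Their correlation with the background-corrected ratios below was not computed. Scale and direction of the deposited values are those of Cy5 over Cy3, and their centring stays unknown.

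Median spot signals were background-corrected with normexp (offset 50), and each array was normalized by loess in limma 3.58.1 under R 4.3.3, without control spots. Outlier-flagged spots stayed in the loess fit and were left out when spots of a probe were averaged. A probe was kept where Cy5 was well above background on at least 3 of the 5 arrays of a group, and each gene took its brightest probe, which left 25534 features, 641 of them with a missing value on some array. The fit (lmFit, eBayes) covered all 7 groups with 28 residual degrees of freedom before moderation; adjusted p-values are Benjamini-Hochberg over all features, called under 0.05. The script was tested on simulated data. All tests were two-sided, and errors are SE unless marked SD.

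The members and gene lists were chosen with earlier results of these data known. Named genes are the 12 largest differences in each direction with a symbol, a call and no overlap, up to 4 called members of each list (the 2 largest differences where none was called), genes of prior interest and tested members of their families; Hp, Ifit1, Oas2, Camp, Ngp, S100a8 and S100a9 were added after their values were seen, and some genes that the rule selects are not reported here. Alternatives covered background correction, normalization, the Cy5 channel alone, the deposited values, filters, probe averaging, slide as a block, array weights, and leaving out arrays. Promoter sequences are RefSeq's (GRCm38.p6).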

Additional observations from a re-analysis of the deposited data

Results flagged for a closer look

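Single arrays stood apart from the other 4 of their group in 8 of 167 groups of 5 values examined, and chance marks about 1 group in 20. Control replicate 7 lay nearer the NRCWE-043 mean on 1091 of the 1375 called features, where the other 4 controls did so on 54 to 258. NRCWE-043 replicate 22 was high for Gsta3 (4.85 against 3.78 to 4.01), H2-D1 (3.06 against 2.44 to 2.54) and H2-Q2 (2.33 against 1.69 to 1.86). NRCWE-043 replicate 3 was low for Ear2 (6.10 against 6.36 to 6.45) and for Scgb1a1 (6.88 against 7.29 to 7.33). NRCWE-043 replicate 16 was low for Il1b, at 1.83 against 2.71 to 2.73. NRCWE-045 replicate 32 was high for H2-K1, at 2.73 against 2.40 to 2.48. Each value is a log2 ratio of lung over reference RNA apart from the count of features.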

How the results depend on the processing

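No paired analysis was possible because the arrays carry unique numbers and the groups share none. The 1375 calls at 54 µg became 531 after median centring in place of loess (518 of them among the 1375), 2101 with array weights, 749 with at least 1.5-fold required, and, in alternatives chosen after seeing the data, 678 without the arrays high in adipose markers and 796 without those high in heart markers; leaving out 1 of the 10 arrays gave 908 to 1363, and leaving out control replicate 7 gave 1478. The 2179 calls at 18 µg became 376 after median centring, 3495 and 3304 with slide as a fixed or random block, and 964 with at least 1.5-fold; leaving out 1 array gave 1468 to 2466. The causes were not tested, apart from the stricter fold and the smaller groups. The remaining alternatives kept these counts within 1.5 times, and the dose effect was called for 0 features under each alternative. Features called higher made up 66.2% to 76.6% of the 54 µg calls. Of the 1375 called features, 62 changed sign in the Cy5 channel alone, 6 after median centring, 6 with the mean over probes and 1 with scaling between arrays; of the 80 genes named, none that was called did, and 22 of the 49 called genes passed under all 28 alternatives. Normexp on mean signals was not run, since the files hold no mean foreground signal. Signal over background limits the brightest BC061237 probe and the unnamed chr5 regions to lower bounds, and Gm10375 was above it on 1 of 5 NRCWE-043 arrays.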
